A study of Astyanax mexicanus with 6 samples.

Results

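The genes described are the 1512 gene bodies of Astyanax mexicanus, the Mexican tetra, in which methylated cytosine was the minority state in eye DNA of both morphs. A gene body was taken when it had at least 100 methylation calls in each of 2 bisulfite libraries and under 40% of those calls were methylated in both. Of 25271 gene bodies in the deposited table, 24750 had enough calls, so the low ones made up 6.11%. The genes were thus chosen by their gene body methylation, and those levels and their differences between the libraries are given as a description, with no test.

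Eyes were taken from wild-type cave fish and wild-type surface fish embryos at about 54 hours post-fertilization, and 1 kit gave both RNA and DNA, per the labels' protocols. Whole-genome bisulfite sequencing (WGBS), which reads unmethylated cytosine as thymine, covered 1 cave and 1 surface library. For RNA, 2 poly(A)-selected libraries came from each morph. The WGBS libraries held 469015502 (cave) and 448796711 (surface) gene body calls. The RNA libraries held between 117742250 and 154476181 counts. With 1 WGBS library per morph, each methylation contrast compares those 2 libraries and not the morphs. Calls on a read are not independent, and none of the cave library's values was odd (0, against 48543 odd values for the surface library). Intervals, which cover counting error only, are therefore too narrow. Whether replicate RNA libraries stem from different embryos is not in the labels, and the p-values below reflect how far the libraries vary, which may be technical.

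In vertebrates, cytosines in CG pairs are methylated through most of the genome, gene bodies of active and silent genes included. The exceptions are CpG islands at gene starts and, in wider domains, loci that encode regulators of development, where Polycomb proteins are often bound. Fish, like mammals, also keep the starts of many housekeeping genes free of methylation.

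The RNA libraries stood apart within groups and in the marker check. The summed level of 13 of 16 listed eye genes that the table names was 2639 and 4068 CPM (counts scaled to the library total) in the libraries labelled cave and 798 and 649 CPM in those labelled surface. The rod opsin gene rho had 0 counts in surface replicate 1. Brain markers (4 of 5 found) summed to 31.0 and 6.61 CPM in the libraries labelled cave and to 49.4 and 70.4 CPM in those labelled surface. Muscle markers (3 of 3) summed to 391 and 33.6 CPM against 109 and 138 CPM, and epidermal markers (3 of 3) to 9473 and 930 CPM against 7510 and 9571 CPM, so cave replicate 2 was low in all 3 lists. No gene of the blood list was found by its symbol (0 of 3). Eye genes were thus higher in the libraries labelled cave, whose eyes are the ones that degenerate, and whether RNA and DNA labels match was not tested; RNA libraries are named by their label throughout. In whole eyes, fewer cells of a type and less RNA per cell cannot be told apart.

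Gene bodies of the eye DNA fell into a large methylated class and a small unmethylated one, and the genes described spanned the latter and the slope between them. Between 80 and 90% methylation lay 9961 gene bodies of the cave library and 10602 of the surface library. The count fell towards lower levels, to 219 and 258 between 10 and 20%, and was higher again under 10%, at 547 and 550. The limit of 40% sits on the slope, where 606 and 582 gene bodies lay between 30 and 40% and 906 and 945 between 40 and 50%. Median methylation of the 1512 was 20.1% in the cave and 18.5% in the surface library, against 83.3% and 82.1% over all gene bodies with enough calls.

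**Figure D1:**
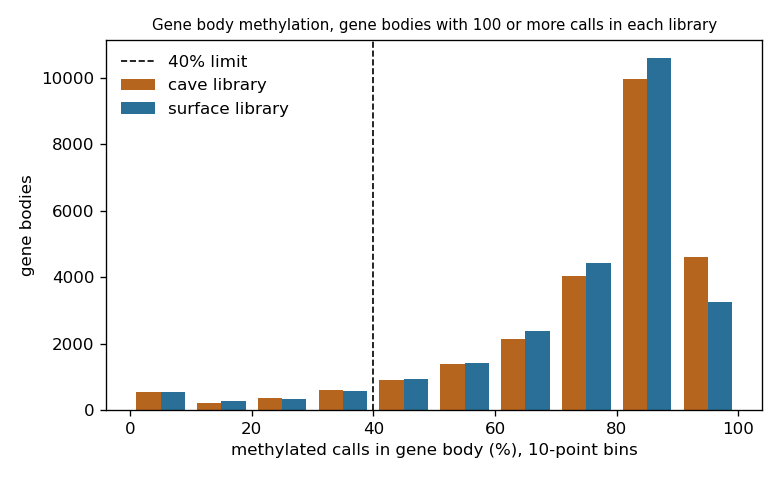
Number of gene bodies (y axis) in each 10-point bin of gene body methylation in percent (x axis) for the cave and the surface WGBS library, with the 40% limit dashed. The tall bars stand at 80 to 90%, with 9961 and 10602 gene bodies, and a small separate group stands under 10%, with 547 and 550.

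The dip between 10 and 20% separates 509 genes under 10% in both libraries from the other 1003, a split chosen after the values were seen. The 509 had median levels of 2.24% and 1.96%, and the others 28.2% and 26.9%. Near the limit the list is arbitrary: rbm8a, which encodes a protein of the exon junction complex, was at 37.7% (36.2 to 39.1, 95% exact Clopper-Pearson interval) in the cave and 40% (38.5 to 41.5) in the surface library and lay just inside. The genes phyh (40% and 39.4%) and stmn1b (39.9% and 37.7%) were also just inside. Just outside were selo (40% and 37.7%), fam46ab (34.5% and 40%) and SOCS7 (40% and 37.4%).

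The lowest named levels were those of the small nuclear RNA gene U6 and the small nucleolar RNA gene U3, both of which have several near-identical copies whose reads may not be separable. The U6 copy had 0% methylated calls in the cave library (0 to 2.25) and 0.585% in the surface library (0.0148 to 3.22). Among protein-coding genes, phox2bb, a homeobox gene of autonomic neurons, was at 0.877% (0.663 to 1.14) and 0.99% (0.768 to 1.26). The notochord homeobox gene noto was at 1.25% and 0.654%, and the forebrain homeobox gene gsx2 at 1.31% and 0.8%. ANKRD9, an ankyrin repeat gene, was at 1.31% and 1.02%.

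Both libraries gave nearly the same level for most of these genes. The cave level minus the surface level had a median of 0.421 points, and from the 5th to the 95th percentile ran from -7.24 to 8.55 points. It was 10 points or more in either direction for 87 of the 1512, against 1192 of all 24750 gene bodies with enough calls. In the 509 under 10% in both libraries, a difference of that size is not possible. The cave level was the higher one in 891 genes and the lower one in 619. Over all gene bodies with enough calls it was higher in 15837 and lower in 8909, with a median difference of 0.952 points. Depth was ample, with medians of 5905 and 5823 calls per gene body and minima of 104 and 109. Calls were also dense. Per kb of span there were 1424 and 1413 calls at the median, against 783 and 761 over all gene bodies, and 3571 and 3793 in the 509 under 10%.

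The gene bodies with low methylation were short. Their median span, End minus Start, was 3560 bp, with quartiles of 1737 and 5885 bp, against a median of 10389 bp over all 24750. The 509 under 10% had a median span of 1413 bp and the other 1003 one of 4688 bp. Of all gene bodies under 1 kb, 16.8% were low in both libraries (211 of 1254), and of those from 1 to 3 kb, 12.7% (420 of 3295). The share was 9.83% from 3 to 10 kb, 1.63% from 10 to 30 kb and 0.284% from 30 kb up, where 14 of 4931 qualified. Across the 1512, Spearman's rho between span and gene body level was 0.613 in the cave and 0.584 in the surface library, and over all gene bodies it was -0.109 and -0.0975. Within the 509 under 10% it was 0.239 and 0.237, and within the other 1003 it was 0.349 and 0.279, so part of the value over the 1512 comes from the difference in span between these groups. The rule caps the levels at 40%, genes are not independent replicates, and span also sets the number of calls, so these are descriptions.

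**Figure D2:**
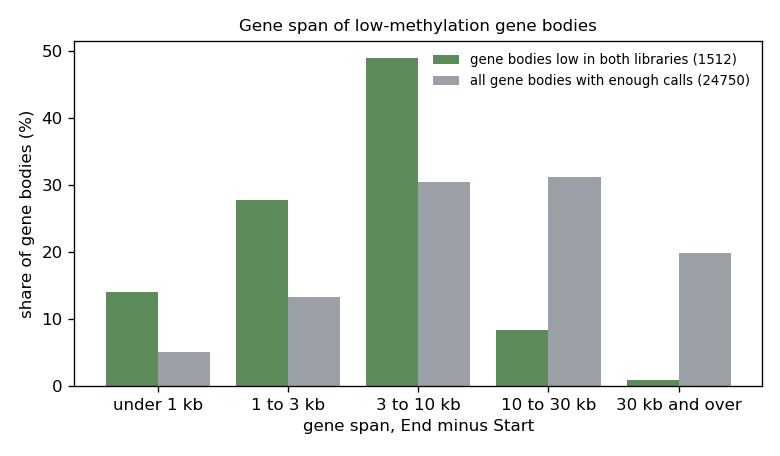
Share of gene bodies in percent (y axis) by gene span in kb (x axis), for the 1512 gene bodies low in both libraries and for all 24750 with enough calls. Spans from 3 to 10 kb hold the most low gene bodies, 741 of the 1512, and spans of 30 kb and over hold 14.

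A few long genes had a low level over their whole span, which the files give as 1 value per gene body. The longest named one was pcdh1gc5, a clustered protocadherin gene of neuronal adhesion (KB871663.1, 14889 to 84724), with a span of 69835 bp at 27.3% and 19.5%; its span overlaps other gene models, which share the calls. It was followed by igf2bp1, an RNA-binding protein gene of embryonic growth, with 48698 bp at 37.4% and 35.9%, and by the homeobox gene ONECUT3, with 33796 bp at 24.7% and 24.5%. The heart and forelimb factor gene tbx5a spanned 31701 bp at 33.8% and 32.3%, cbx7b, which encodes a Polycomb subunit, 31711 bp at 28.4% and 35.1%, and fgf1a, a growth factor gene, 31274 bp at 33.4% and 22.7%. Upstream levels of these long genes varied. The gene tbx5a had 0.9% and 1.09% upstream and pcdh1gc5 11.4% and 6.17%, while cbx7b had 93.3% and 90.4% and fgf1a 89.6% and 81.4%.

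Regions upstream of these genes, whose width is not given in the sources used here, were also less methylated than elsewhere, but not uniformly. Upstream columns were not used to choose the genes. At 20 or more upstream calls in each library, 1476 of the 1512 had an upstream value, with medians of 12.4% (cave) and 11.5% (surface), against 75% and 72.7% for the 21726 other genes. Upstream methylation was under 10% in both libraries for 627 (42.5%), against 14.9% of the other genes, and 80% or more in both for 121 (8.2%), against 35.7%. Of the 509 genes under 10% in the body, 65.1% of those with a value were also under 10% upstream, and of the other 1003, 30.7%. Because genes are not replicates, these shares carry no test.

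**Figure D3:**
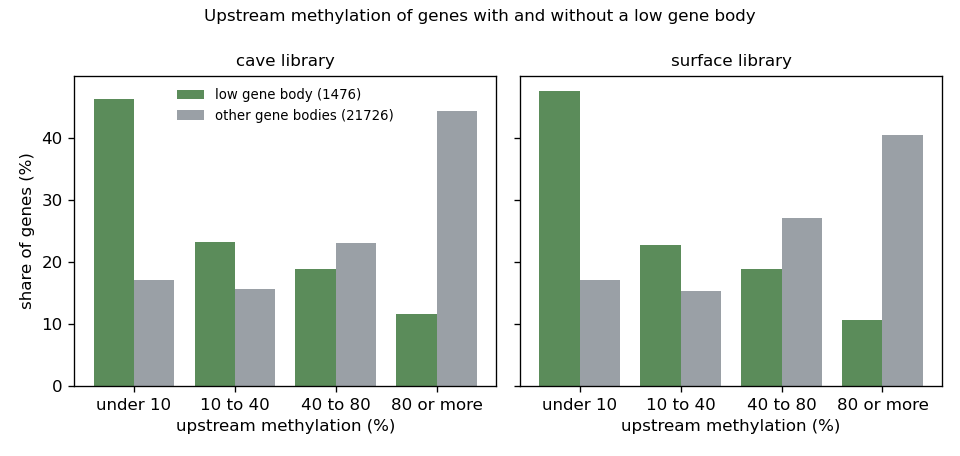
Share of genes in percent (y axis) by upstream methylation in 4 ranges in percent (x axis) for the cave library (left) and the surface library (right), for 1476 genes with a low gene body and 21726 others. Of low gene bodies 46.3% (cave) and 47.6% (surface) had an upstream level under 10%, against 17.1% of the others in each library.

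The reverse view gave a smaller overlap. At 100 or more upstream calls, 3837 upstream regions were under 10% in both libraries, and 621 of them belonged to low gene bodies, which is 41.1% of the 1512 and 16.4% of the 3797 unmethylated upstream regions whose gene body had enough calls. That second share depended on span. It was 69.1% for genes under 1 kb, 49.2% from 1 to 3 kb, 20% from 3 to 10 kb, 3.95% from 10 to 30 kb and 0.643% from 30 kb up. An unmethylated upstream region thus went with a low gene body mainly in short genes. At equal span the difference between low and other gene bodies remained, since 54.8% of low gene bodies under 1 kb were under 10% upstream against 5.13% of the others, and 35.2% against 16.2% from 3 to 10 kb.

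The 121 genes with a low body under a methylated upstream region formed the opposite case. Of these, 2 were Hox or developmental transcription factor genes, and their median body level was 26.8% in both libraries. An example is foxi1, a forkhead gene of ear and ionocyte development (KB882285.1, 74093 to 75401), which had 1.72% and 1.76% in the body and 89.4% and 84.4% upstream. The gene ptmaa, which encodes the abundant nuclear protein prothymosin alpha, had 8.1% and 7.81% in the body and 81.7% and 84.0% upstream, and its RNA stood at 1505, 919, 1288 and 1342 CPM in cave replicates 1 and 2 and surface replicates 1 and 2. The Ran GTPase gene ran of nuclear transport had 14.8% and 14.5% in the body against 95.2% and 90.7% upstream, and dusp1, a MAP kinase phosphatase gene, 15.1% and 16.8% against 91.6% and 91.6%. These examples were chosen after their values were seen.

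By gene class, Hox genes had the highest share in the list, and smell and taste receptor genes had none. Classes were assigned by symbol, which 1117 of the 1512 had. The class of respiratory chain and mitochondrial import genes also holds mitochondrial ribosomal protein genes. All 45 Hox cluster genes were members. Of 350 other genes in developmental transcription factor families, 166 were (47.4%), against 6.11% of all gene bodies. Together, Hox and these families made up 14.0% of the list. The share was 50% of histone genes (6 of 12), 26.9% of protocadherins (7 of 26), 21.8% of small non-coding RNAs (29 of 133), 21.2% of respiratory chain and mitochondrial import genes (40 of 189), 18.7% of immediate early and stress genes (37 of 198) and 16.7% of ribosomal protein genes (15 of 90). It was 12% of patterning signal genes (15 of 125), 11.1% of proteasome and ubiquitin genes (13 of 117) and 9.16% of splicing and transcription genes (12 of 131). Claudin and keratin genes, with 3 of 44 (6.82%), were near the share of all gene bodies. Smell and taste receptors had 0 of 62, ion channels 2 of 186 and zinc finger genes 4 of 135. Genes without a symbol, 395 of 7731, came close to the share of all gene bodies, at 5.11%. Class shares were not compared at equal span, and over all gene bodies the share fell from 16.8% under 1 kb to 0.284% from 30 kb up. Median spans outside the list were 29905 bp for ion channels, 1460 bp for smell and taste receptors and 131 bp for small non-coding RNAs.

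**Figure D4:**
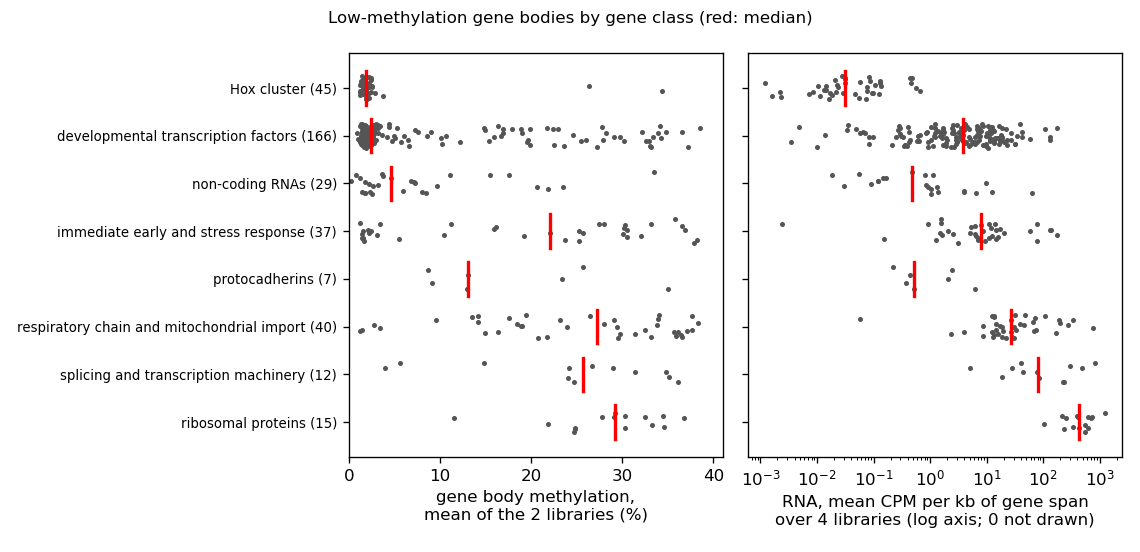
Gene body methylation in percent, mean of the 2 WGBS libraries (left x axis), and RNA level in CPM per kb of gene span, mean of 4 libraries, on a log axis (right x axis), for each low gene body of 8 classes (rows); red bars are medians. Hox genes lie near 2% with RNA far under 1 CPM per kb, and ribosomal protein genes lie at 11 to 37% with RNA over 100 CPM per kb.

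Hox genes encode the homeobox factors that set position along the trunk, and were nearly free of methylation in eye DNA. Of the 45, 43 were under 10% in both libraries, with a median of 2.06% and 1.76%. The exceptions were hoxa1a (23.7% and 28.9%) and hoxb3a (33.3% and 35.5%). Upstream they had medians of 2.26% and 2.24%, and 44 of 45 were under 10% in both, hoxa1a being the exception at 21.0% and 28.3%. Their RNA was scarce, as 0 of 45 reached 1 CPM in every library and 39 stayed under 1 CPM in all 4. The median Hox level was 0.0894 and 0.00712 CPM per kb in the libraries labelled cave and 0 and 0.0178 CPM per kb in those labelled surface. The hindbrain gene hoxb3a had the most, with 633 and 193 counts in the libraries labelled cave and 56 and 783 in those labelled surface, so the groups overlapped. The gene hoxb3a is also among the brain markers, whose sums are given above.

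The 166 developmental transcription factor genes outside the clusters were less uniformly low in methylation than Hox genes, and more of them had RNA. Their median body level was 2.71% and 2.31%, with 117 under 10% in both libraries and maxima of 39.0% and 39.1%, and their upstream median was 2.47% and 2.18%, with 134 of 165 under 10%. Their RNA level was 2.71 and 1.16 CPM per kb in the libraries labelled cave and 4.05 and 5.07 CPM per kb in those labelled surface, with 110 of 166 at 1 CPM or more in every library and 18 under 1 CPM in all 4. Members of these families were shorter than genes of the same families that did not qualify, at 3466 against 11420 bp.

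Families differed in how many of their genes qualified. All 7 dlx genes, which pattern forebrain and jaw, were members at medians of 1.91% and 2.09%, and all 6 zic genes, zinc finger factors of the dorsal neural tube, at 2.17% and 2.05%. Of the nkx homeobox genes 10 of 13 qualified, of the id genes, which encode inhibitors of bHLH factors, 5 of 6, and of the sine oculis homeobox genes, the family of six3b, 5 of 8. The proneural and oligodendrocyte bHLH genes (neurod, neurog, ascl, atoh, olig) had 8 of 15, at 1.56% and 1.45%, the pou genes 8 of 16, the sox genes 10 of 23 and the forkhead genes 16 of 45. The meis and pbx genes, which encode Hox cofactors, had 0 of 8, with a median span of 26333 bp. Low family members were not of 1 level, as gata genes (4 of 6) lay at 26.2% and 22.1% and id genes at 20.9% and 17.7%.

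Regulators of eye formation were split between low and methylated gene bodies. The homeobox gene otx2, needed for photoreceptors and pigment epithelium (KB882158.1, 163369 to 178169), had 3.0% (2.77 to 3.24) in the cave and 3.09% (2.84 to 3.35) in the surface library over 14800 bp. The eye field genes six3b (1.54% and 1.33%) and six6b (2.15% and 2.14%) were as low. The gene named pax-6, looked up after the list was known, had 22.7% and 23.3%. Against these, rx3 had 89.2% and 80.4%, the rx1 copies 89.1% and 88.2% in one and 48.9% and 49.2% in the other, crx 58.1% and 62.6% and vsx1 46.9% and 41.1%, all outside the list.

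The low eye regulators named here were all expressed. The RNA of otx2 was 130 and 288 CPM in the libraries labelled cave and 196 and 159 CPM in those labelled surface. For pax-6 it was 361 and 713 CPM against 331 and 286 CPM. Cave replicate 2 was the highest library for both, and the groups overlapped for otx2. Mean levels per length were 13.1 CPM per kb for otx2, 13.4 for six3b, 21.8 for pax-6 and 41.7 for six6b.

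Genes of growth factors, of rapid response and of histones covered the whole range of the list. Of 37 immediate early and stress genes, 13 were under 10%, among them the intronless or nearly intronless factor genes jun (2.05% and 2.94%), cebpa (1.69% and 1.2%) and ier2 (2.56% and 1.72%); the median of the 37 was 22.5% and 23.7%. Among 15 patterning signals, gdf6a, a BMP-family ligand of eye and skeleton, had 1.76% and 2.03%, and the hedgehog ligand gene ihhb 39.4% and 39.7%. Of the 6 histone genes, 4 were under 10% in both libraries, with medians of 5.67% and 3.54%. The linker histone gene h1f0 had 6.15% and 1.99% and the replacement histone gene h3f3d 32.8% and 32.6%.

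Lists of Polycomb and of neuropeptide genes were drawn up after values had been seen. Of 35 Polycomb and chromobox genes 11 qualified, at medians of 26.8% and 26.9%, and cbx8a, at 3.47% and 1.87%, was the single one under 10%. Of 72 neuropeptide and hormone precursor genes 14 qualified and 7 were under 10%. Among these were the corticotropin-releasing hormone genes CRH (1.23% and 1.42%) and crha (1.35% and 1.95%), the somatostatin gene sst1.1 (2.18% and 1.76%), and trh, the thyrotropin-releasing hormone gene (1.35% and 2.33%). The second somatostatin gene on the same scaffold, sst1.2, had 91.4% and 91.2%.

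Ribosomal protein, respiratory chain and splicing genes of the list mostly lay above 10%, and had high RNA levels per length. Their medians were 427, 26.7 and 82.2 CPM per kb, against 299, 9.4 and 11.2 CPM per kb for genes of these classes outside the list. Those outside were also longer, at median spans of 5135, 6421 and 8363 bp against 4358, 3746 and 4766 bp. For ribosomal protein genes, a high level was thus not particular to the list. The 15 ribosomal protein genes had medians of 31.3% and 25.7%, with 0 of them under 10%, and an RNA level of 413 and 445 CPM per kb in the libraries labelled cave and 490 and 395 CPM per kb in those labelled surface. All 15 were at 100 CPM or more in every library. The lowest was rps29, at 15.3% and 7.9%. The 40 respiratory chain and mitochondrial import genes had medians of 27.4% and 24.0% and 26.2, 28.8, 23.4 and 21.9 CPM per kb in cave replicates 1 and 2 and surface replicates 1 and 2. Their lowest was mrps6, a mitochondrial ribosomal protein gene, at 1.4% and 1.1%, and atp5e, an ATP synthase subunit gene, had 5.53% and 1.41%. The splicing genes hnrnpa0b (6.69% and 1.36%) and hnrnpa0l (9.75% and 1.46%) were the 2 of 12 under 10%. For both, the cave level was the higher one.

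Genes outside these classes were also among the most abundant RNAs of the list. The cyclophilin gene ppiaa had 3338 and 3629 CPM in the libraries labelled cave and 3659 and 3424 CPM in those labelled surface. The actin-severing cofilin gene cfl1 had 3532 and 2821 CPM against 3479 and 3229 CPM. Their groups overlapped, and their bodies had 25.4% and 14.9%, and 37.0% and 29.9%. Per length, rps24 at 1247 CPM per kb stood above RPS20 at 743, rpl30 at 629, ppiaa at 587, cfl1 at 471 and ybx1, which encodes an RNA-binding cold shock protein, at 434 CPM per kb.

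Over the whole list, RNA per length was higher than over all genes. The median level was 2.92 and 2.32 CPM per kb in the libraries labelled cave and 3.0 and 3.30 CPM per kb in those labelled surface, a mean of 2.88 ± 0.409 (SD, n = 4). Over all 24750 genes it was 0.558, 0.414, 0.472 and 0.557 CPM per kb. Each of the 4 libraries showed this difference over the whole list. Span includes introns, and short spans raise a level per kb, so the same was read within bins of span. Low gene bodies had 3.07 CPM per kb against 0.492 for the others under 1 kb, 2.13 against 0.493 from 1 to 3 kb, 4.33 against 1.11 from 3 to 10 kb, and 1.46 against 0.673 from 10 to 30 kb, and each library had this order. From 30 kb up, with 14 low gene bodies, there was no one order: medians were 0.119, 0.18, 0.158 and 0.125 CPM per kb in cave replicates 1 and 2 and surface replicates 1 and 2, against 0.165, 0.137, 0.148 and 0.194 CPM per kb for the others.

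The list held both the silent and the abundant. Of the 1512, 180 (11.9%) had 100 CPM or more in every library, against 5.17% of all genes, while 277 (18.3%) stayed under 1 CPM in every library, against 20.5%, and 34 had no count at all. The share at 1 CPM or more in every library was 68.6%, against 65.1% of all genes. It was 47.5% in the 509 under 10% and 79.3% in the other 1003. The 509 thus had a lower share of detected genes than the other 1003, but they were also shorter, at median spans of 1413 against 4688 bp. Over the list that share was 42.7% under 1 kb, 58.6% from 1 to 3 kb and 80.2% from 3 to 10 kb. Detection in these groups was not compared at equal span.

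Low gene bodies lay beside one another more often than gene bodies at large. The next gene with enough calls on the scaffold was also in the list for 220 of 1391 (15.8%), against 6.34% of all genes. Most stood alone, with 1161 single genes and 351 in 131 runs. There were 10 runs of 5 genes or more, and 7 of them were Hox clusters that together held all 45 Hox genes. The longest Hox run, from eve1 to hoxb1a, covered 11 genes (KB871704.1, 580583 to 693707). The evx and eve homeobox genes at cluster ends, evx1, evx2 and eve1, were part of such runs. A further 2 runs were protocadherin clusters, of 9 and 5 genes, at 6.97 to 38.3% over both libraries in the first. The remaining run, of 12 genes with 1 symbol, lay on KB872051.1 from 85816 to 200353. Shorter runs joined developmental genes, such as irx3a, irx5b and irx6a, and nkx2.4a, nkx2.2a, pax1a and foxa2. Spans overlapped another gene model in 9.92% of the list, against 13.6% of all genes, and such genes can share calls and reads.

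RNA of the list was then compared between the libraries labelled cave and labelled surface, which asks whether genes with low gene body methylation differ in expression between the morphs' eyes. Few passed the test. Of 1397 tested with edgeR's quasi-likelihood test and Benjamini-Hochberg adjustment over all 22850 genes, 14 were higher in the libraries labelled cave (1.0%, against a background of 2.77% of all genes tested) and 8 were lower (0.573%, against 0.407%). The other 115 had too few counts to test. An unadjusted edgeR p under 0.05 was reached by 283 of the 1397, and by 4173 of all 22850 genes. The median log2 fold change was 0.03, against 0.02 over all genes. The count depended on single libraries: leaving out cave replicate 1 gave 166 higher and 262 lower, leaving out cave replicate 2 gave 117 and 157, and leaving out either surface replicate gave 0 and 0 with edgeR, where 124 and 75 had an unadjusted p under 0.05. DESeq2 called 56 of the list higher and 79 lower, against 1593 (6.61%) and 756 (3.14%) of the 24108 genes it tested. Lower calls thus outnumbered higher ones in the list, and the reverse held over all genes. Of 473 tested genes with a body under 10%, 8 were higher and 61 lower, and of 983 other members 48 and 18.

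Genes that rose were of several kinds. The largest change was in prph2l, related to the peripherin genes of photoreceptor discs (KB882250.1, 1169083 to 1174773). The libraries labelled cave held 4724 and 3533 counts of it, whereas those labelled surface held 78 and 114. Its log2 fold change was 5.78 (SE 0.33, edgeR adjusted p = 0.00279). All 4 libraries separated by group, in the direction of the eye marker sums of 2639 and 4068 against 798 and 649 CPM, whose part in the result was not tested. The body of prph2l was at 37.0% and 30.8%, and its upstream region at 13.4% (9.22 to 18.6) in the cave and 1.46% (0.476 to 3.38) in the surface library.

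The posterior Hox gene hoxa13b had 358 and 197 counts (labelled cave) against 16 and 10 (labelled surface), with a log2 fold change of 4.70 (edgeR adjusted p = 0.0347). The embryonic globin gene hbz had 486 and 324 counts against 22 and 26, with 4.40 (edgeR adjusted p = 0.0225). The vesicular acetylcholine transporter gene slc18a3a, known from cholinergic neurons, had 659 and 995 counts against 100 and 110, with 3.35 (edgeR adjusted p = 0.0346). For these 3, body levels were between 1.44% and 3.28%, and the groups did not overlap. The intermediate filament gene synm, with a body at 33.9% and 34.6%, had 2223 and 1664 counts against 389 and 447, with 2.56 (edgeR adjusted p = 0.0215). The others higher with a symbol were si:ch211-81a5.8, bbs5 of the ciliary BBSome, TMEM19, pgam1a of glycolysis and flvcr1, a heme and choline transporter gene, and 4 had none.

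**Figure D5:**
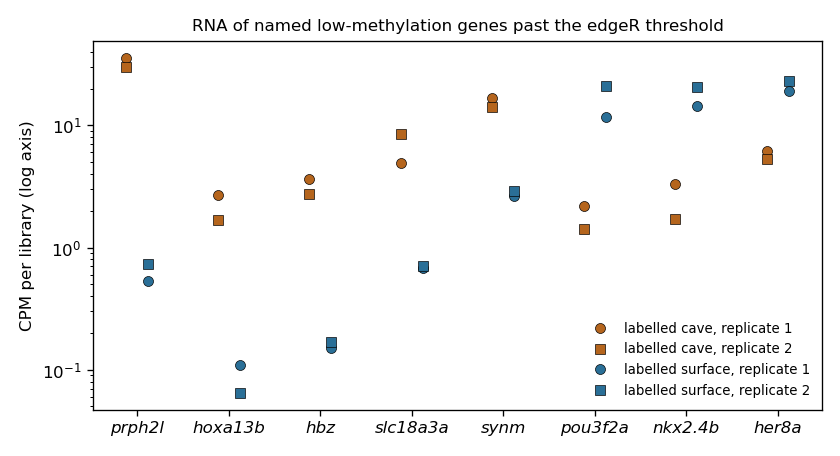
RNA in CPM on a log axis (y axis) of 8 low-methylation genes past the edgeR threshold (x axis), 1 point per library, for 2 libraries labelled cave and 2 labelled surface. For prph2l the libraries labelled cave stand at 35.6 and 30 CPM over 0.531 and 0.738 CPM, and for pou3f2a they stand at 2.17 and 1.41 CPM under 11.8 and 20.9 CPM.

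The 3 genes with a symbol that fell are neural transcription factor genes. The POU factor gene pou3f2a, of neural progenitors, had 288 and 166 counts (labelled cave) against 1730 and 3222 (labelled surface), with a log2 fold change of -3.09 (edgeR adjusted p = 0.0279). The ventral forebrain and hypothalamus gene nkx2.4b had 439 and 203 counts against 2094 and 3177, with -2.71 (edgeR adjusted p = 0.0402). The Notch-pathway bHLH gene her8a had 811 and 621 counts against 2795 and 3583, with -1.81 (edgeR adjusted p = 0.0363). Their bodies were at 1.53% and 2.06%, 2.56% and 1.96%, and 23.2% and 20.3%. The brain marker list, which includes nkx2.4b, moved with them at 31.0 and 6.61 against 49.4 and 70.4 CPM, and the part of brain tissue in the dissection was not tested. The other 5 that fell have no symbol.

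As a class, the developmental transcription factors of the list lay below 0 in most members. Of 161 tested, 0 were higher and 3 lower by edgeR, and 122 had a log2 fold change below 0, with a median of -0.95. An unadjusted edgeR p under 0.05 was reached by 66 of the 161. Outside the list it was reached by 43 of 172 genes of these families, and over all genes by 4173 of 22850. The 172 tested genes of the same families outside the list had a median of -0.25, with 2 higher and 1 lower, and all genes one of 0.02. DESeq2 called 2 higher and 41 lower among the 164 it tested. Outside the list it called 8 and 17 of 180 genes of these families, and over all genes 1593 and 756 of 24108. The count of edgeR calls in this class depended on single libraries. It rose without either library labelled cave and vanished without either labelled surface, as over all genes. The median was -1.85 without cave replicate 1, -0.77 without cave replicate 2, -1.12 without surface replicate 1 and -0.79 without surface replicate 2. Brain marker sums were lower in both libraries labelled cave, and 3 of the 4 brain markers found are themselves in the list. Of the 17 Hox genes with enough counts to test, 1 was higher by edgeR, at a median log2 fold change of 1.63. That median was 0.85 and 3.16 without cave replicates 1 and 2, and 1.81 and 6.01 without surface replicates 1 and 2. The number of genes tested differed between these fits, in which 1 library alone can let a gene pass the filter. The median over all Hox genes was highest in cave replicate 1, at 0.0894 CPM per kb. It was 0.00712 in cave replicate 2 and 0 and 0.0178 in the libraries labelled surface. Among the Hox genes with the most RNA, hoxb3a, HOXA2, hoxb2a and hoxa2b were highest in surface replicate 2, and hoxa13b in cave replicate 1. Ribosomal protein and respiratory chain genes had 0 calls by edgeR and DESeq2 alike (of 15 and 40 tested, 1 and 6 with an unadjusted edgeR p under 0.05). For both classes, this absence of calls did not hold in every fit that left out 1 library. Their median log2 fold changes were 0.07 and 0.27, and ran from -0.17 to 0.31 and from 0.1 to 0.31 in those fits.

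Upstream methylation of the list was compared between the WGBS libraries with Fisher's exact test (two-sided) on methylated and unmethylated calls, with Benjamini-Hochberg adjustment over 23680 regions, with a difference of at least 10 points. Of 1476 tested, 149 were more methylated in the cave library (10.1%, against a background of 12.1%) and 113 less (7.66%, against 8.67%). Over the 23202 regions whose gene body had enough calls, the background was 12.1% and 8.68%. Among the 507 with a body under 10%, 26 were more and 26 less methylated (5.13% each), and in the other 969, 123 and 87. An upstream region under 10% in both libraries cannot differ by 10 points, so it could not be called. Such regions were 42.5% of the 1476, 65.1% of the 507 and 30.7% of the 969, against 16.6% of the 23202. The shares called are bounded by this, so they do not show whether the list differed from the background. Most upstream regions of the list differed by under 10 points or did not pass.

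The largest gains in the cave library were at tcf21, a bHLH gene of heart and kidney mesoderm, and napab, a gene of vesicle fusion. The upstream region of tcf21 (body KB882242.1, 452577 to 458594) had 80% (78.5 to 81.5) in the cave and 26.9% (25.2 to 28.8) in the surface library, and its RNA was under 1 CPM in all 4 libraries. The upstream region of napab had 83.8% (80.7 to 86.5) and 31.5% (28.3 to 34.8). The retinol acyltransferase gene lratb had 60.3% and 20.2%, the ubiquitin-conjugating enzyme gene ube2w 79.6% and 39.4%, and the tubulin tyrosine ligase gene ttl 59.6% and 25.4%. None of these 5 passed the RNA test. RNA of ube2w was 35.5 and 25.6 CPM in the libraries labelled cave against 11.5 and 15.9 CPM, with an edgeR adjusted p = 0.0912.

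The largest losses were at ppp1r11, a phosphatase inhibitor gene, with 0% (0 to 13.2) in the cave and 67.9% (53.7 to 80.1) in the surface library over few calls (26 and 53), and at susd4, a complement regulator gene, with 29.1% and 75.5%. The proteasome assembly gene PSMG4 had 14.9% and 57.8%, and cox19, a gene of cytochrome oxidase assembly, 16.2% and 52.1%. The bHLH gene neurod6b, of differentiating neurons (body KB873277.1, 13067 to 13987), had 27.1% (19.3 to 36.1) against 69.5% (59.2 to 78.5) upstream, over a body at 1.08% and 1.43%. Its RNA was 3.97 and 2.06 CPM in the libraries labelled cave and 6.62 and 12.5 CPM in those labelled surface, without overlap but not past the test (log2 fold change -1.57, edgeR adjusted p = 0.183). Of the 262 called upstream and the 22 called in RNA, 4 genes were in both, prph2l, flvcr1 and 2 without a symbol. Over all 24750 gene bodies with enough calls, 174 genes were in both. There, 633 were called higher and 92 lower in RNA, and 2799 more and 2015 less methylated upstream. For flvcr1, upstream levels were 4.59% and 14.8%, and it was the reverse case of prph2l, since both were higher in RNA in the libraries labelled cave.

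Within the limit of the rule, a few bodies differed between the libraries. The Wnt receptor gene FZD7 had 33.7% (33.1 to 34.4) in the cave and 7.08% (6.74 to 7.43) in the surface library, and the protocadherin gene pcdh2aa15 35.7% and 15.8%. A copy of U2 had 31.4% and 9.96%. In the other direction, SNORA62, a small nucleolar RNA gene, had 1.45% (0.176 to 5.14) and 33.6% (27.6 to 40), a copy of Metazoa_SRP, the signal recognition particle RNA, 3.97% and 34.6%, and tmem238b 4.42% and 34.7%. The last 3 span 139, 298 and 314 bp. RNA of FZD7 was 37.2 and 25.6 CPM in the libraries labelled cave and 47.7 and 60.5 CPM in those labelled surface (edgeR adjusted p = 0.223). The rule caps each level at 40%, so it bounds how large such differences can be.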

How the data were processed

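The methylation table holds, for each gene body and upstream region, counts of calls read as methylated and as unmethylated, deposited by the authors, per the file headers. The RNA table holds raw read counts per gene, also deposited by the authors. The submitters' processing notes name Trimmomatic, Bismark, STAR, Subread, featureCounts and DESeq2, giving no version. Not given in the sources used here are the genome build, the cytosine context, the upstream width and any duplicate removal. Positions are scaffold positions as the files give them.

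Percentages, CPM (counts over the library total) and CPM per kb of span were computed here. Span is End minus Start and includes introns. RNA counts of all genes were tested, 2 libraries against 2, with edgeR 4.0.16 in R 4.3.3 (TMM, filterByExpr, quasi-likelihood) at an adjusted p of 0.05, and with DESeq2 1.42.0 as an alternative. The standard error is the log2 fold change over the square root of its F statistic. Upstream regions with 20 or more calls in each library were tested by Fisher's exact test. Both tests were first run on simulated data, with the same relative spread between libraries for every gene and with independent calls. Calls on a read are not independent and the spread between RNA libraries was uneven, so those runs do not measure error rates here. Other steps ran in Python 3.11.15 (pandas 2.3.3, scipy 1.17.1), and figures in matplotlib 3.10.9. Groups came from the sample labels. Whether equal replicate numbers pair the RNA libraries was checked by the correlation, across 22850 genes, of replicate 1 minus replicate 2 in both groups (-0.0719), and they were not taken as pairs.

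The genes, lists and gene classes were chosen with earlier results of these data known, and the neuropeptide and Polycomb lists, the group under 10% and pax-6 were added after values were seen. Genes are named by a rule: the 6 lowest, longest and most abundant, up to 3 per class, those with the largest called RNA (5 each way) and upstream (5 each way) differences, those nearest the limit, the 3 largest body differences each way, and eye genes. Other names were chosen after their values were seen. Not every gene that the rule names is reported here. Sequences are not shown, since none of the files' build was used here.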

Additional observations from a re-analysis of the deposited data

How the results depend on the processing

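The list moved with its limit. Under a limit of 20%, 30% and 50% instead of 40% (1512 genes), it held 709, 999 and 2346 genes. The share of spans under 3 kb (41.7%) became 66.7%, 55.4% and 30.6%, that of genes under 10% upstream (42.5%) became 56.2%, 49.3% and 37.4%, and that of Hox and developmental transcription factor genes (14.0%) became 24.5%, 19.2% and 9.93%. The median RNA level (2.88 CPM per kb) was 1.87 and 2.4 CPM per kb at 20% and 30%, and with no division by length it was 10 CPM. Undivided medians were 9.88, 8.35, 10.2 and 11.6 CPM in cave replicates 1 and 2 and surface replicates 1 and 2. Over all 24750 genes they were 7.26, 5.51, 6.08 and 7.2 CPM. In the same order, the 509 genes under 10% had 2.18, 1.13, 2.36 and 3.27 CPM. The other 1003 had 19.6, 18.5, 17.3 and 18.8 CPM. The share followed by another low gene body (15.8%, against 6.34% of all genes) was 19.0% at 50% (against 9.88%) and 17.6% at 20% (against 2.95%). Leaving out gene bodies under 1 kb lowered the share under 3 kb to 32.3%, and an upstream limit of 20% raised the overlap with unmethylated upstream regions from 41.1% to 52.5%. Asking for 20 or 500 calls, or halving the cave calls, gave lists of 1530, 1448 and 1499 genes, and no mitochondrially encoded gene was in the table (0).

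RNA calls (14 higher, 8 lower) ranged from 0 to 166 and from 0 to 262 when 1 library was left out, a fit that takes the lone library of a group to vary like the others. DESeq2 gave 56 and 79, a limit of 20% gave 4 and 5, and a limit of 50% gave 27 higher. With the replicate number as a block, 4 were higher and 0 lower, against 318 and 35 over all genes. An unadjusted edgeR p under 0.05 was then reached by 218 of the list and by 3319 of all 22850 genes. The numbers were not taken to pair the libraries, so this says nothing of a weaker effect. Upper-quartile scaling moved the median log2 fold change of all genes from 0.02 to -0.08 and gave 11 and 8. The cause of these shifts was not tested. No paired analysis was possible for methylation because there is 1 library per morph. Upstream calls (149 more, 113 less methylated) became 32 and 23 at a stricter difference of 25 points. With fewer or more genes in the list, they became 47 and 45 at a limit of 20% and 253 and 182 at a limit of 50%. Protein length was not used in place of gene span. The spread between animals is not measured for methylation and rests on few libraries for RNA.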
